A study of Mus musculus with 9 samples.

Results

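The miR-30 family was measured in the hippocampus of mice exposed to fine particulate matter (PM2.5). Its members were taken by name from the array files, with no use of their signals, and were 7 of the 1247 mouse miRNAs on the array: mmu-miR-30a-5p, mmu-miR-30a-3p, mmu-miR-30b-5p, mmu-miR-30c-5p, mmu-miR-30d-5p, mmu-miR-30e-5p and mmu-miR-30e-3p. All mice were young adult C57BL/6 males, and particles or saline were given by oropharyngeal aspiration every other day for 4 weeks. The control group received saline, and the exposed groups received PM2.5 at 1 or 5 mg/kg body weight. The study's separate vehicle control, saline prepared with a particle-free filter, is not among the groups named for these arrays. Each group held 3 mice, and total RNA of each hippocampus was hybridised to 1 single-colour Agilent array. The comparison asks whether PM2.5 shifted the family, either together or unequally among its members.

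A miRNA precursor is a hairpin from which a 5p and a 3p arm are cut, and the arm loaded into an Argonaute protein guides it to messenger RNAs. Pairing is set mainly by bases 2 to 8 of the arm, the seed. The miR-30 family is widely expressed, is abundant in brain, and has been studied for its part in autophagy, in fibrosis and in the differentiation of several tissues. Its 5p arms carry 1 common seed, and are the more abundant strands in most tissues, whereas the 3p arms of miR-30a and miR-30e carry another.

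The mature sequences are shown because the seed defines the family and because the arms of miR-30a and miR-30e are almost identical, which bears on what a probe can tell apart. They come from RefSeq (GRCm38.p6), 5′ to 3′, with the seed in capitals.
miR-30a-5p: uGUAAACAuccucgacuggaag
miR-30e-5p: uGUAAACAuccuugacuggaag
miR-30c-5p: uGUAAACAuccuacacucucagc
miR-384-5p: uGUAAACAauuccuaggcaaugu
miR-30a-3p: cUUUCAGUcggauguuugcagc
miR-30e-3p: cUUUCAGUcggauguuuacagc
Counted from 1 at the 5′ end, the 5p arms of miR-30a and miR-30e differed by C13U alone. Their 3p arms differed by G18A alone. miR-30c-5p shared the first 12 bases with miR-30a-5p and differed from it at 5 of the 22 bases compared. Of the 7 members, 5 matched an entry of the sequence table. Among the sequences matched, the seed GUAAACA was carried by the 5p arms of miR-30a, miR-30c and miR-30e and, outside the miR-30 name, by miR-384-5p. The seed UUUCAGU was carried by both 3p arms. miR-30b-5p and miR-30d-5p are described by name and signal.

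The genes lie in 3 pairs (GRCm38.p6). Mir30a (chr1:23272269-23272339) and Mir30c-2 (chr1:23291701-23291784) are separated by 19.36 kb. Mir30b (chr15:68337415-68337510) and Mir30d (chr15:68341208-68341289) are separated by 3.70 kb. Mir30c-1 (chr4:120769534-120769622) and Mir30e (chr4:120772606-120772697) are separated by 2.98 kb and both fall within the span of Nfyc, a gene for a subunit of the transcription factor NF-Y. Mature miR-30c-5p is the same from both of its loci, so its signal cannot be divided between them.

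Signal was the background-subtracted fluorescence summed over the probes of a miRNA, divided on each array by the 75th percentile of the miRNAs detected on all 9 arrays, and given on the log2 scale. The arrays detected between 410 and 436 miRNAs each, with a 75th percentile of 492 to 614 units and 0 saturated spots. All 7 miR-30 arms were detected on all 9 arrays, and 100% of their spots were well above background. All 6 brain miRNAs used as markers were detected on every array, and miR-122-5p, the liver marker, on 0. Of the 5 striated muscle markers, 2 (miR-1a-3p and miR-133a-3p) were detected on every array and 3 on none. The 2 endothelial and the 2 oligodendrocyte markers were detected on every array. The choroid plexus markers (3 of 5 detected on all arrays) were combined as the log2 of their summed linear signals. They gave 1.69 to 2.33 in the control group, 2.47 to 3.16 at 1 mg/kg and 1.58 to 2.52 at 5 mg/kg. Most of this signal was miR-204-5p, with group means of 1.96, 2.73 and 1.90. The means of miR-204-3p, miR-211-5p and miR-448-3p were also higher at 1 mg/kg than in the control group. That of miR-211-3p was not (-3.12 against -3.07). The part of choroid plexus in the changes at 1 mg/kg was not tested. The blood markers (4 of 7 detected on all arrays and 2 on none) summed to 1.89 to 2.17 in the control group, 1.93 to 2.09 at 1 mg/kg and 2.199 to 2.31 at 5 mg/kg. Most of this sum was mmu-miR-451a, a miRNA of red blood cells, with group means of 1.71, 1.67 and 1.97. Its log2 change at 5 mg/kg was 0.26 (unadjusted p = 0.034, adjusted p = 0.469 in limma). That of miR-142-3p was 0.21 (unadjusted p = 0.034, adjusted p = 0.469 in limma). For miR-150-5p, miR-223-3p and miR-144-3p it was 0.044, 0.11 and 0.40 (standard errors 0.09, 0.13 and 0.27). The part of blood in the changes at 5 mg/kg was not tested. The oligodendrocyte markers, as the log2 of their summed linear signals, gave 1.86 to 2.39 in the control group and 2.16 to 2.47 at 1 mg/kg. At 5 mg/kg they gave 1.36 to 2.55, and their part in the changes was not tested. The first row of slide 1 carried the control arrays with replicate 1 of 1 mg/kg. Its second row carried the other 1 mg/kg arrays with replicates 1 and 2 of 5 mg/kg. Replicate 3 of 5 mg/kg was the single array of slide 2, also in a first row. Row and dose thus coincided in part, so for some arms fits with the row as a block or values within a row are given beside the results. The only row 1 array at 5 mg/kg was that of slide 2, so row 1 values at 5 mg/kg also compare slides. Row-block values at 5 mg/kg draw on that array too. Whole hippocampus was measured, so fewer cells of a type and less RNA per cell cannot be told apart.

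The paralogs gave very different signals, and probes of the same arm also differed by up to 5.42-fold. Each arm had 40 spots, shared among 3 probes for miR-30a-5p and 2 for each other arm. The mean signal over the 9 arrays was 3994 units for miR-30a-5p, 1935 for miR-30b-5p, 2976 for miR-30c-5p, 647 for miR-30d-5p and 1442 for miR-30e-5p, and for the 3p arms it was 222 (miR-30a-3p) and 237 (miR-30e-3p). Each 5p arm gave more signal than both 3p arms, which compares probe sets and not numbers of molecules. For miR-30b-5p, a probe of 16 bases gave 302 units and one of 17 bases gave 1633, 5.42-fold more with 1 more base. The ratio of the brightest to the dimmest probe of an arm was 3.68 for miR-30c-5p, 3.61 for miR-30a-5p, 3.28 for miR-30e-5p, 2.30 for miR-30e-3p, 1.69 for miR-30a-3p and 1.28 for miR-30d-5p, whose probes were the shortest, at 13 and 14 bases. No order of abundance among the paralogs was therefore read from these signals. Replicate spots were close, with a median coefficient of variation between 2.97% and 7.49% per probe.

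**Figure D1:**
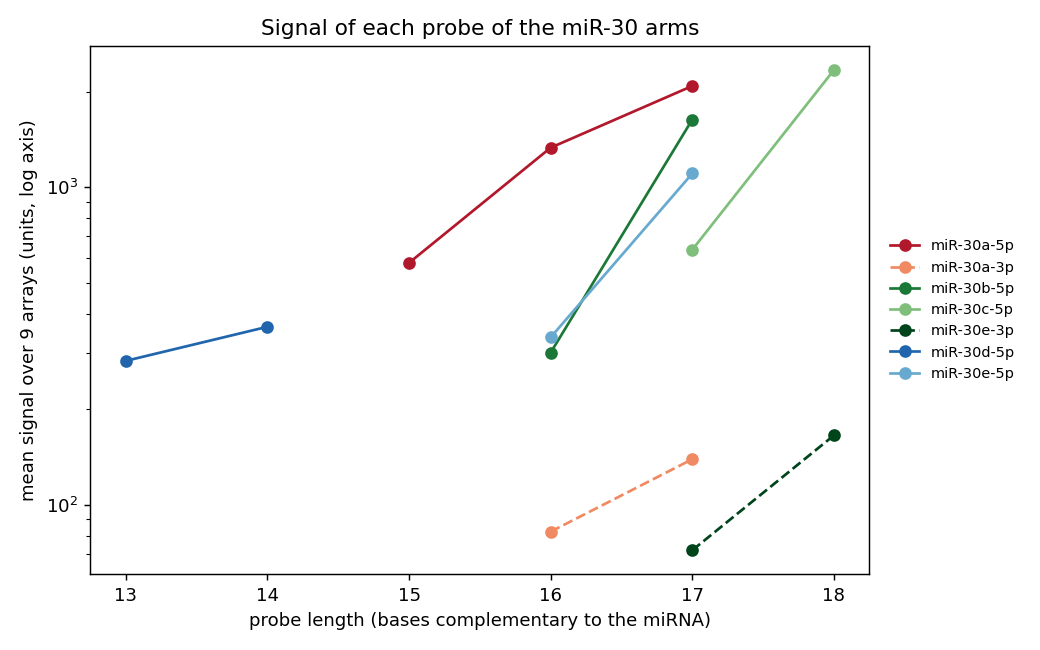
Mean signal over 9 arrays (units, log axis) of each probe of the 7 miR-30 arms against its length in bases. Each point is 1 probe, lines join the probes of an arm, and dashed lines mark 3p arms. Within every arm the longer probe was brighter, by up to 5.42-fold for miR-30b-5p.

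The longest probes against miR-30a-5p and miR-30e-5p are shown because they differ at the base that separates these arms. Each is written 5′ to 3′ as DNA complementary to the miRNA, with all bases matching its own arm.
miR-30a-5p probe: cttccagtcgaggatgt
miR-30e-5p probe: cttccagtcaaggatgt
Aligned to the other arm, the miR-30a-5p and miR-30e-5p probes had 1 mismatch. The probes against the 3p arms likewise had 1 mismatch to the 3p arm of the other gene. How much of each signal came from the near-identical arm was not measured, so the values of miR-30a and miR-30e are uncertain in that respect. miR-30b-5p and miR-30d-5p had no matched sequence, so their probes were not aligned and no probe was aligned to these arms. Binding of a similar arm was therefore not examined for miR-30b-5p and miR-30d-5p, and only in part for the other members. The values of miR-30b-5p, miR-30c-5p and miR-30d-5p are thus not shown to be free of such binding.

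No miR-30 arm passed the test at either dose. At 1 mg/kg, 0 of the 7 had an unadjusted p under 0.05 in limma, the threshold of the screen in the study, where 7.78% of the 424 tested miRNAs did. At 5 mg/kg it was 0 of 7 where 9.43% of all tested miRNAs did, and between the doses it was 0 of 7 where 3.77% did. After Benjamini-Hochberg adjustment the shares of all tested miRNAs were 0.236%, 0% and 0.236%, and 0 members passed in any of the comparisons. The 1 mg/kg and the control arrays were separate, without overlap, for 1 of 7 members (12.3% of all tested miRNAs). The 5 mg/kg and the control arrays were separate for 0 of 7 (16% of all), and those of the exposed groups for 0 of 7 (7.31% of all).

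miR-30a-5p, with its partner strand, had the widest range of the members over the 9 arrays, 0.42 on the log2 scale. The log2 signal of miR-30a-5p was 3.04, 2.76 and 3.00 on the control arrays, 2.80, 2.67 and 2.88 at 1 mg/kg, and 2.71, 2.62 and 3.01 at 5 mg/kg. Control replicate 2 was low and 5 mg/kg replicate 3 was as high as the upper controls, so all groups overlapped. The log2 change was -0.15 (standard error 0.12, 95% interval -0.43 to 0.13) at 1 mg/kg and -0.15 (standard error 0.12, interval -0.43 to 0.13) at 5 mg/kg. Single arrays moved these changes: without control replicate 2 they were -0.24 at both doses, and without control replicate 1 they were -0.10 at both. Without replicate 2 of 1 mg/kg the change at that dose was -0.098. The change at 5 mg/kg was -0.075 without replicate 2 of that dose and -0.27 without replicate 3 (unadjusted p = 0.039 in limma), where 122 of 433 tested miRNAs had an unadjusted p under 0.05. When the slide row was a block the changes were -0.030 and -0.033. Within row 1 the 1 mg/kg array differed from the mean of the controls by -0.14 and the 5 mg/kg array, on slide 2, by 0.073. In row 2 the 5 mg/kg arrays differed from those at 1 mg/kg by -0.11.

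miR-30a-3p, the opposite strand of the same hairpin, moved with its 5p arm from array to array. Its log2 signal was -1.13, -1.48 and -1.19 in the control group, -1.44, -1.49 and -1.22 at 1 mg/kg, and -1.44, -1.55 and -1.16 at 5 mg/kg. The same arrays were high and low as for miR-30a-5p, and the groups overlapped. The log2 changes were -0.12 (standard error 0.13) at both doses, with adjusted p = 0.865 and 0.795 in limma. With the row as a block they were -0.041 and -0.036. Within row 1 the 1 mg/kg array differed from the mean of the controls by -0.18 and the 5 mg/kg array, on slide 2, by 0.10. In row 2 the 5 mg/kg arrays differed from those at 1 mg/kg by -0.13. Leaving out single arrays gave changes from -0.23 (without control replicate 2) to -0.059 (without control replicate 1) at 1 mg/kg, and from -0.23 (without 5 mg/kg replicate 3) to -0.034 (without 5 mg/kg replicate 2) at 5 mg/kg.

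miR-30d-5p was the member whose control and 1 mg/kg arrays did not overlap. Its log2 signal was 0.32, 0.22 and 0.34 in the control group and 0.19, 0.10 and 0.19 at 1 mg/kg, and at 5 mg/kg it was 0.13, 0.16 and 0.26. All 1 mg/kg arrays lay below the lowest control array, while 1 of the 5 mg/kg arrays lay above it. The change at 1 mg/kg was -0.13 (standard error 0.07, interval -0.29 to 0.03, unadjusted p = 0.098, adjusted p = 0.594 in limma), and at 5 mg/kg it was -0.11 (standard error 0.07, interval -0.27 to 0.05). With the variance pooled over the groups and no moderation, as in the LSD comparison of the methods, the unadjusted p at 1 mg/kg was 0.045. Within row 1 the single 1 mg/kg array differed from the mean of the controls by -0.099. With the row as a block the changes were -0.076 at 1 mg/kg and -0.055 at 5 mg/kg.

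miR-30b-5p, encoded next to miR-30d, had group means close to each other. On the log2 scale its signal was 1.86, 1.69 and 1.80 in the control group, 1.71, 1.73 and 1.85 at 1 mg/kg, and 1.74, 1.76 and 1.95 at 5 mg/kg. The highest and the lowest arrays came from the 5 mg/kg and the control groups, and all groups overlapped. The log2 changes were -0.024 and 0.028 (standard error 0.09 for each).

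miR-30c-5p had the changes nearest to 0. Its signals were 2.501, 2.28 and 2.44 in the control group, 2.32, 2.37 and 2.49 at 1 mg/kg, and 2.38, 2.36 and 2.53 at 5 mg/kg. The groups covered nearly the same range, with the lowest array in the control group and the highest at 5 mg/kg. The log2 changes were -0.016 (interval -0.21 to 0.18) and 0.014 (interval -0.19 to 0.21).

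miR-30e-5p had the narrowest range of the members over the 9 arrays, 0.18 on the log2 scale. It measured 1.45, 1.38 and 1.41 in the control group, 1.39, 1.28 and 1.29 at 1 mg/kg, and 1.32, 1.35 and 1.46 at 5 mg/kg. Its arrays separated by row of the slide: all 4 in row 2 (1.28 to 1.35) lay below all 5 in row 1 of either slide (1.38 to 1.46), which held for 1 of the 7 members, and rows separated in either direction for 6.60% of all tested miRNAs. The log2 changes were -0.091 (standard error 0.07, interval -0.25 to 0.06) at 1 mg/kg and -0.034 (standard error 0.07) at 5 mg/kg. With the row as a block they were -0.014 and 0.043.

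miR-30e-3p, its partner strand, had log2 signals of -1.17, -1.32 and -1.23 in the control group, -1.39, -1.26 and -1.17 at 1 mg/kg, and -1.27, -1.23 and -1.11 at 5 mg/kg. Its lowest array was 1 mg/kg replicate 1, on which miR-30e-5p was high for its group. The log2 changes were -0.039 and 0.033 (standard error 0.08 for each), and the groups overlapped.

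**Figure D2:**
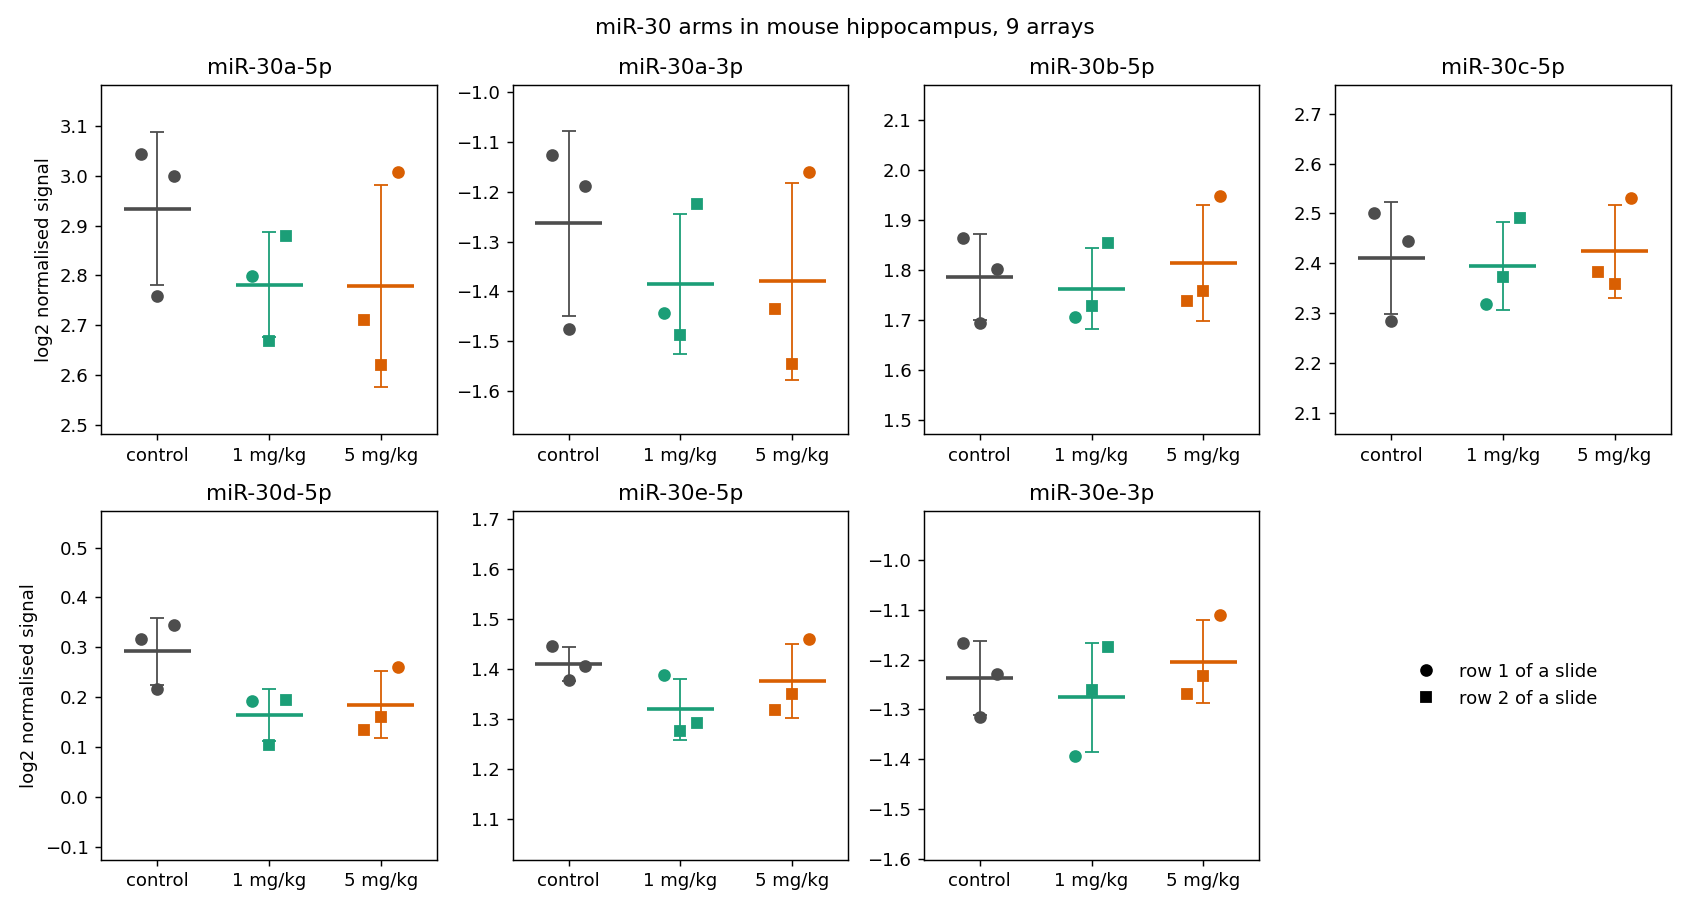
Log2 normalised signal (y axis, the same span in each panel) of the 7 miR-30 arms by group. Points are arrays, circles in row 1 and squares in row 2 of a slide, and bars give the mean ± SD (n = 3). The groups overlap in all panels except control against 1 mg/kg for miR-30d-5p, and the circles of miR-30e-5p all lie above its squares.

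As a family, the arms lay below the control at 1 mg/kg and on both sides of it at 5 mg/kg. At the lower dose 7 of 7 were lower, with changes from -0.15 to -0.016 and a median of -0.091, beside a median of -0.032 and 60.1% lower among all 424 tested miRNAs. At the higher dose 4 of 7 were lower, with changes from -0.15 to 0.033 and a median of -0.034, beside -0.0035 and 51.2% lower among all. From 1 to 5 mg/kg the median change was 0.029, beside 0.041 among all. Both doses were compared with the same control arrays.

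These directions depended on the scaling of the arrays. Without scaling the median of all tested miRNAs was 0.078 at 1 mg/kg and 0.11 at 5 mg/kg, and the members' median was 0.018 and 0.080, with 3 and 2 of 7 lower. With the total signal per miRNA from the scanner software the members' medians were 0.048 and 0.12 against 0.10 and 0.14 for all tested miRNAs, with 1 and 0 of 7 lower. In that column, however, the total was over 10% above the sum of the totals of the miRNA's own probes for 124 of the 424 tested miRNAs on at least 1 array, and for 0 of the 7 members. With the probe totals summed instead, an alternative added after the values were seen, the members' medians were -0.10 and -0.037 with 7 and 4 of 7 lower, as in the main setting. With the slide row as a block the members' median was -0.030 at 1 mg/kg and 0.022 at 5 mg/kg, beside -0.024 and 0.013 for all tested miRNAs. With normexp background correction it was -0.020 at 5 mg/kg, beside -0.047 for all, so the side of the members' median relative to all tested miRNAs also depended on the setting. Without 5 mg/kg replicate 3, 7 of 7 members were lower at 5 mg/kg, with a median of -0.078.

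Changes were also taken for each probe alone. At 5 mg/kg the 3 probes of miR-30a-5p ranged from -0.19 to -0.13 and the probes of miR-30d-5p from -0.12 to -0.085, while those of miR-30c-5p disagreed in sign, at -0.0011 and 0.068. At 1 mg/kg the probes of miR-30b-5p, miR-30c-5p and miR-30e-3p disagreed in sign, at -0.030 and 0.0099, -0.026 and 0.022, and -0.057 and 0.0031. The changes of these arms at both doses were smaller than their standard errors.

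**Figure D3:**
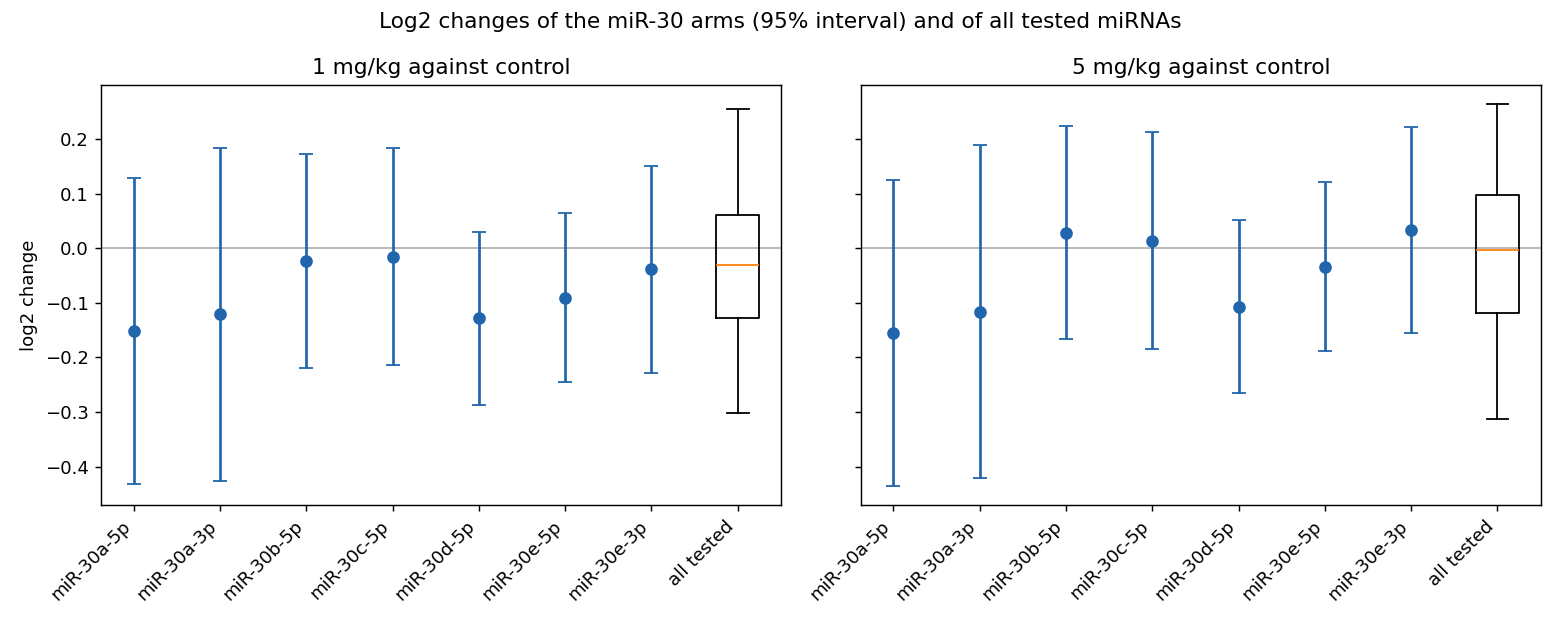
Log2 change against the control (y axis) of the 7 miR-30 arms at 1 and 5 mg/kg, with 95% intervals from limma. The box gives the median and quartiles of the 424 tested miRNAs, with whiskers at the percentiles 5 and 95. All 14 intervals include 0.

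The 5p to 3p ratio within an array does not depend on any scaling by 1 factor per array, and only its differences between arrays are read, since the arms have different probes. For miR-30a the log2 ratio of 5p to 3p was 4.17, 4.23 and 4.19 in the control group, 4.24, 4.15 and 4.10 at 1 mg/kg, and 4.15, 4.17 and 4.17 at 5 mg/kg. It was nearly constant, with a range of 0.14 over the 9 arrays, against a range of 0.42 for each arm alone. The 5 mg/kg arrays lay just below the control arrays without overlap, with a mean difference of -0.038 (two-sided exact permutation, p = 0.1, which is the lowest possible with groups of 3, adjusted p = 0.3 over 12 tests). The difference at 1 mg/kg was -0.031 (exact permutation p = 0.5, adjusted p = 0.75), and the groups overlapped. With the slide row as a block the differences had the opposite sign, 0.011 and 0.0035.

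For miR-30e the log2 ratio of 5p to 3p was 2.61, 2.69 and 2.63 in the control group, 2.78, 2.54 and 2.47 at 1 mg/kg, and 2.59, 2.58 and 2.57 at 5 mg/kg. The SD was 0.17 at 1 mg/kg, where the highest and the lowest of the 9 arrays lay, against 0.042 in the control group and 0.0091 at 5 mg/kg. The 5 mg/kg arrays again lay below the control arrays without overlap, by 0.067 on average (log2 difference -0.067, exact permutation p = 0.1, adjusted p = 0.3). The difference at 1 mg/kg was -0.052 (exact permutation p = 0.7, adjusted p = 0.84). Within row 1 the 1 mg/kg array was 0.13 above the mean of the controls. The 5 mg/kg array of row 1, on slide 2, differed from that mean by -0.077. In row 2 the 5 mg/kg arrays were 0.083 above those at 1 mg/kg. With the row as a block the differences from the control were 0.036 and 0.021.

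miR-30d-5p and miR-30b-5p, from the pair of genes on chromosome 15, were compared in the same way. No ratio was tested for the other gene pairs. This pair was chosen with earlier results of these data known, and the adjustment over the ratio tests does not cover that choice. The log2 ratio of miR-30d-5p to miR-30b-5p was -1.55, -1.48 and -1.46 in the control group, -1.51, -1.62 and -1.66 at 1 mg/kg, and -1.60, -1.60 and -1.69 at 5 mg/kg. The group means were -1.49 ± 0.05 (SD, n = 3), -1.60 ± 0.08 (SD, n = 3) and -1.63 ± 0.05 (SD, n = 3). The 5 mg/kg arrays did not overlap with the controls (log2 difference -0.14, exact permutation p = 0.1, adjusted p = 0.3), while 1 of the 1 mg/kg arrays did (difference -0.10, exact permutation p = 0.2, adjusted p = 0.48).
The slope was -0.068 per step in the order control, 1 and 5 mg/kg (p = 0.032 in an exact permutation over 1680 arrangements of the arrays, two-sided), and did not pass after adjustment over the 12 ratio tests (adjusted p = 0.3). With the slide row as a block the slope was -0.061 (exact permutation within rows, p = 0.15). Within row 1, the 5 mg/kg array, on slide 2, differed from the mean of the controls by -0.19 and the 1 mg/kg array by -0.018. In row 2 the 5 mg/kg arrays were 0.042 above those at 1 mg/kg. The slopes of the miR-30a and miR-30e arm ratios were -0.019 and -0.034 (exact permutation p = 0.311 and 0.419, adjusted p = 0.621 and 0.718).

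**Figure D4:**
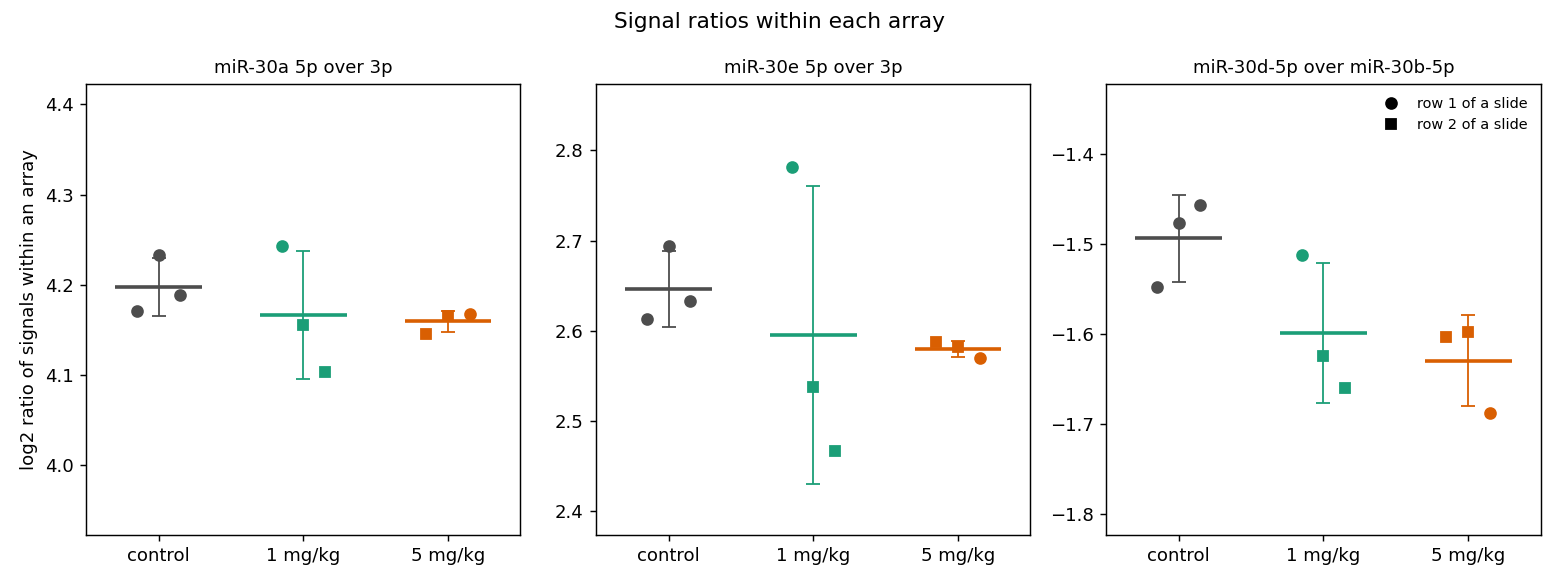
Log2 ratio of signals within each array (y axis, the same span in each panel) for miR-30a 5p over 3p, miR-30e 5p over 3p and miR-30d-5p over miR-30b-5p, by group. Points are arrays, circles in row 1 and squares in row 2 of a slide, and bars give the mean ± SD (n = 3). In each panel the 3 arrays at 5 mg/kg lie below the 3 control arrays, and the 1 mg/kg arrays overlap with both groups.

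Some arms ran closely together from array to array. The SD over the 9 arrays of the difference between miR-30b-5p and miR-30c-5p was 0.025, the lowest of the 21 pairs. Their genes lie on different chromosomes. miR-30e-3p followed both, with SDs of 0.035 and 0.037. The arms of miR-30a had an SD of 0.043, and miR-30d-5p and miR-30e-5p one of 0.048. The arms of miR-30e had an SD of 0.091, so miR-30e-5p was closer to miR-30d-5p than to the other strand of its own hairpin. The largest SD was 0.14, between miR-30a-3p and miR-30e-5p. These SDs describe 9 arrays that share the probes, the slides and the scaling, and no test was made of them. The part of probes that bind a similar arm was not tested, and miR-30b-5p and miR-30d-5p were not compared in sequence.

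**Figure D5:**
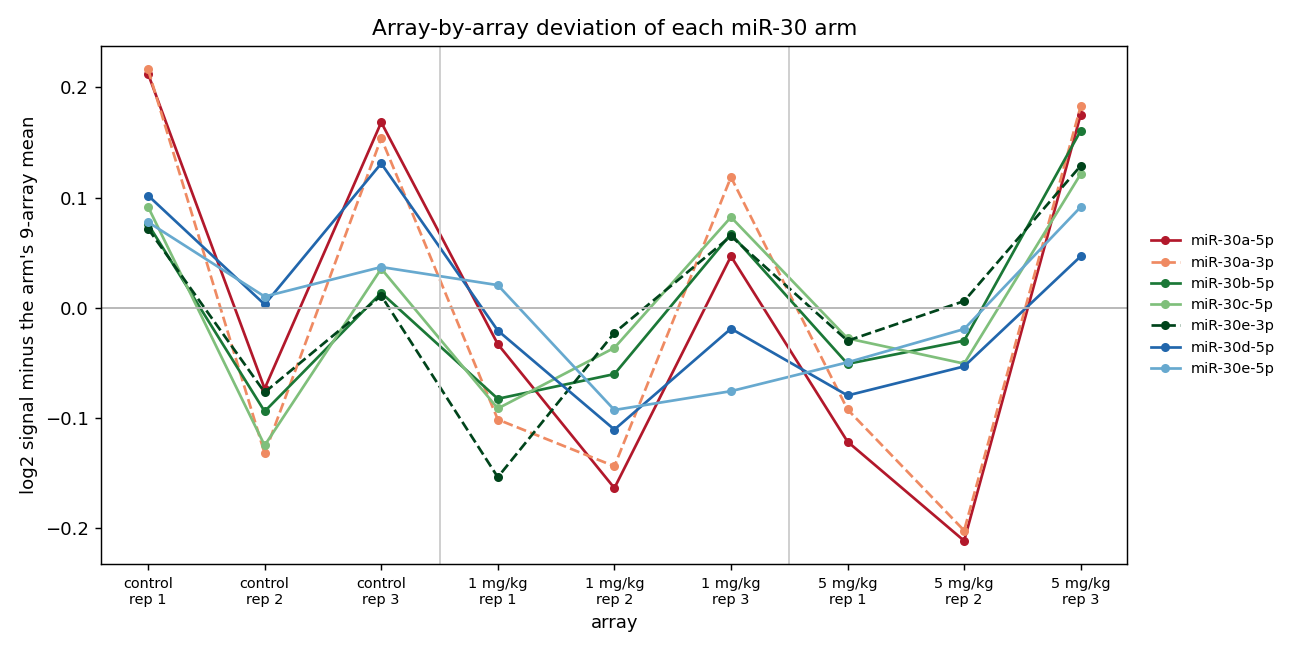
Deviation of each miR-30 arm from its own mean over the 9 arrays (log2, y axis) on each array (x axis, 3 per group). Lines join the values of an arm across arrays that have no order within a group, and dashed lines are 3p arms. miR-30a-5p and miR-30a-3p run together over a range of 0.42 each, and miR-30b-5p, miR-30c-5p and miR-30e-3p run close to each other.

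The remaining miR-30 arms on the array were dim. miR-30b-3p, miR-30c-1-3p and miR-30c-2-3p were tested, and 0 of the 3 had an unadjusted p under 0.05 in any comparison. Their changes ran from -0.19 to 0.035 at 1 mg/kg and from -0.20 to 0.035 at 5 mg/kg. miR-30d-3p was detected on 1 of the 9 arrays and miR-30f on 0, and they were not tested.

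miR-384-5p, which has the seed of the miR-30 5p arms but a different body, had higher means in the exposed groups. Its log2 signal measured -0.53, -0.37 and -0.39 in the control group, -0.38, -0.03 and -0.20 at 1 mg/kg, and 0.00, -0.04 and -0.40 at 5 mg/kg. The groups overlapped, and all 4 arrays in row 2 lay above all 5 in row 1. Within row 1, the 1 mg/kg array (-0.38) and the 5 mg/kg array (-0.40, on slide 2) lay inside the range of the controls. The part of the slide row in its changes was not tested. The log2 change was 0.23 (standard error 0.13, unadjusted p = 0.119) at 1 mg/kg and 0.28 (standard error 0.13, interval -0.013 to 0.58, unadjusted p = 0.058, adjusted p = 0.511 in limma) at 5 mg/kg. It was not tested against the miR-30 arms.

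Other families of several loci were counted beside all tested miRNAs, of which 60.1% were lower at 1 mg/kg and 51.2% at 5 mg/kg. Of all tested, 7.78% and 9.43% had an unadjusted p under 0.05 in limma at these doses. For the let-7 guide strands, with miR-98-5p among them, 9 of 9 were lower at 1 mg/kg (median -0.12). At 5 mg/kg 9 of 9 were lower (median -0.095), and 0 had an unadjusted p under 0.05 at either dose. The miR-29 3p arms were lower for 3 of 3 at 1 mg/kg (median -0.11) and 2 of 3 at 5 mg/kg (median -0.075), also with 0 at that threshold. Lower values at 1 mg/kg were thus measured in these families too.

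The miRNAs whose signal over the 9 arrays was most like the mean of the 5 miR-30 5p arms, among 414 candidates outside the miR-30 name, were miR-674-3p (Pearson r = 0.951), miR-23b-3p (0.943), miR-129-1-3p (0.939), miR-299b-5p (0.939) and miR-181d-5p (0.935). These correlations describe 9 arrays with shared scaling.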

How the data were processed

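Hippocampal RNA of 9 mice, 3 in each of the control, 1 and 5 mg/kg groups, was measured on 1-colour Agilent mouse miRNA arrays, 1 per mouse. The deposited scanner files hold spot intensity values that the authors extracted with Feature Extraction 10.7, not normalized between arrays. The authors also deposited log2 values with 1268 entries, used as an alternative. Their column medians run from -3.322 to -3.29, and their normalization and centring are not given in the sources used here.

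Outlier spots were left out, spots of a probe were averaged, probes of a miRNA were summed, arrays were scaled to the 75th percentile, and values were floored at the lowest detected signal of the array before taking log2. A miRNA was tested if some group had it detected on each of its 3 arrays (424 miRNAs). One limma fit (version 3.58.1, R 4.3.3) covered the 3 groups, with Benjamini-Hochberg adjustment over all of them. Log2 ratios within arrays were tested by two-sided exact permutation, adjusted over 12 tests. The methods were tested on simulated data.

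The text names the 7 members, the other miR-30 arms, miRNAs with the same seed, let-7 and miR-29 as counts, and the 5 most alike miRNAs. The members and lists were chosen with earlier results of these data known. Of 3105 probes, 0 had the same mean signal on 2 arrays. Same-numbered samples were not treated as pairs. The number of arrays limits the precision. Alternatives covered the signal column (the scanner software's totals per miRNA and, added after seeing the data, per probe), background correction (normexp, offset 50), probe summary, scaling, filter, the deposited table, the arrays and variance used, blocks for replicate number, slide and row of the slide, and each array left out.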

Additional observations from a re-analysis of the deposited data

How the results depend on the processing

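Under 25 alternatives, 0 of the 7 arms passed an adjusted p of 0.05 in limma. The count at an unadjusted p under 0.05 became 1 at 1 mg/kg with no moderation (miR-30d-5p, -0.13, with 31 of 424 tested miRNAs) and 1 at 5 mg/kg with the slide as a block (miR-30a-5p, -0.27, with 120 of 424), a block that leaves 5 mg/kg replicate 3 without weight, and ranged from 0 to 1 at 5 mg/kg with each array left out. The members' median changed to 0.048 and 0.12 with the total signal, and to 0.018 and 0.080 without scaling, at 1 and 5 mg/kg. The total signal stood above the sum of a miRNA's own probes for 124 of 424 tested miRNAs on at least 1 array, and with summed probe totals, chosen after seeing the data, the medians were -0.10 and -0.037.

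Most changes were so small that their sign turned with the setting, and the cause was not tested. At 1 mg/kg the total signal gave 0.018 for miR-30a-3p, 0.12 for miR-30b-5p, 0.12 for miR-30c-5p, 0.010 for miR-30d-5p, 0.048 for miR-30e-5p and 0.10 for miR-30e-3p. No scaling gave 0.086 for miR-30b-5p, 0.094 for miR-30c-5p, 0.018 for miR-30e-5p and 0.070 for miR-30e-3p. The 75th percentile of all miRNAs gave 0.012 and 0.020, and the deposited values 0.040 and 0.022, for miR-30b-5p and miR-30c-5p. For miR-30b-5p quantile normalization gave 0.028 and the row block 0.015. At 5 mg/kg the total signal gave 0.0016 for miR-30a-5p, 0.040 for miR-30a-3p, 0.049 for miR-30d-5p and 0.12 for miR-30e-5p. No scaling gave 0.0066 for miR-30d-5p and 0.080 for miR-30e-5p, and the row block 0.043 for miR-30e-5p. For miR-30b-5p quantile normalization gave -0.046 and the deposited values -0.030. The slide block gave -0.039 for miR-30b-5p, -0.040 for miR-30c-5p and -0.014 for miR-30e-3p. Between the doses, miR-30a-5p was 0.015 with the total signal, 0.0038 with the mean over probes and with summed probe totals, 0.0019 without scaling and 0.043 in the deposited table. miR-30a-3p was -0.021 with the percentile of all miRNAs, -0.030 with quantile normalization, -0.019 in the deposited table and -0.10 with the slide block. miR-30b-5p was -0.075, -0.070 and -0.015 with the last 3 settings. miR-30d-5p was -0.0052 with the percentile of all miRNAs, -0.013 with quantile normalization and -0.016 with the slide block, which gave -0.024 for miR-30c-5p.

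With each array left out, changes at 1 mg/kg ran from -0.070 to 0.0093 for miR-30b-5p, -0.079 to 0.024 for miR-30c-5p and -0.090 to 0.019 for miR-30e-3p. At 5 mg/kg they ran from -0.041 to 0.066, -0.049 to 0.056 and -0.016 to 0.065 for the same arms. Between the doses they ran from -0.12 to 0.077 for miR-30a-5p, -0.11 to 0.087 for miR-30a-3p, -0.018 to 0.098 for miR-30b-5p, -0.027 to 0.078 for miR-30c-5p and -0.019 to 0.050 for miR-30d-5p. Leaving out 1 mg/kg replicate 1 left 4 of 7 arms lower at 1 mg/kg, and leaving out control replicate 1 left 5 of 7.

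Ratios turned sign as follows. The miR-30a arm ratio in the deposited table differed by 0.093 at 1 mg/kg, 0.15 at 5 mg/kg and 0.062 between the doses, with a slope of 0.077. It differed by 0.016 between the doses with quantile normalization. With the row block its differences were 0.011 and 0.0035 and its slope 0.0017, and those of miR-30e were 0.036 and 0.021 with a slope of 0.011. Between the doses the miR-30e ratio was 0.0083 with normexp, and miR-30d-5p over miR-30b-5p was 0.062 with quantile normalization and 0.086 in the deposited table. The slope of miR-30d-5p over miR-30b-5p kept its sign but passed 0.05 in the unadjusted exact permutation test no longer with normexp (-0.063), quantile normalization (-0.031), the deposited table (-0.049), the slide as a block (-0.053) or the row block (-0.061). With each array left out it ran from -0.081 to -0.053. It also missed 0.05 without control replicate 2, control replicate 3, replicate 2 of 1 mg/kg or replicate 3 of 5 mg/kg, each alone. Leave-one-out ranges of the other ratios that turned were -0.069 to 0.0012 (miR-30a) and -0.14 to 0.012 (miR-30e) at 1 mg/kg, and -0.040 to 0.030 (miR-30a), -0.080 to 0.078 (miR-30e) and -0.061 to 0.013 (miR-30d-5p over miR-30b-5p) between the doses.

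Same-numbered samples had residual correlations from -0.648 to 0.738 over 9 pairs, and 4 of 9 arrays correlated best with their own number. With a replicate block the count of arms called was 0 in each comparison, and the slope of miR-30d-5p over miR-30b-5p was -0.068 (exact permutation p = 0.065).

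Among all tested miRNAs, the count at an unadjusted p under 0.05 was 33 at 1 mg/kg, 40 at 5 mg/kg and 16 between the doses. It was 14, 17 and 9 with normexp, 8 and 14 at the 2 doses with the row block, 102 at 5 mg/kg with the total signal (41 with summed probe totals), and 120 at 5 mg/kg and 35 between the doses with the slide block. With no filter it was 780 at 1 mg/kg, where values raised to each array's lowest signal were tested. With each array left out it ran from 12 to 49, 19 to 122 and 7 to 35.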
